A study of Rattus norvegicus with 6 samples.

Results

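The activin, inhibin and follistatin system of the pituitary gland was examined through 9 genes, taken by their symbols from the gene counts of 6 libraries. They were the subunit genes Inha, Inhba and Inhbb, the binding protein genes Fst and Fstl3, the type I receptor genes Acvr1 and Acvr1b, and the type II receptor genes Acvr2a and Acvr2b. All 9 were found among the 33294 gene symbols in the files, and all 9 passed the filter on low counts that left 17292 genes for testing.

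Activins are dimers of beta subunits, encoded by Inhba and Inhbb, and they raise the production of follicle-stimulating hormone in the gonadotroph cells of the anterior pituitary. Inhibins pair a beta subunit with the alpha subunit encoded by Inha and oppose this action, and the inhibin that reaches the pituitary through the blood comes mainly from the gonads. Follistatin, encoded by Fst, and the related protein of Fstl3 bind activins and keep them from their receptors. A bound activin brings a type II receptor together with a type I receptor, which then phosphorylates Smad proteins.

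Pituitary RNA came from 11-week-old male Sprague-Dawley rats, the offspring of dams given a subcutaneous osmotic pump while pregnant. The 3 rats of the nicotine group were born to dams whose pumps delivered nicotine tartrate (6 mg/kg per day), and the 3 control rats to dams whose pumps held saline. Each rat gave 1 library. The sources used here do not say which rats shared a litter, so p-values measure only the spread between these animals. The comparison asks whether nicotine given to the dam went with a difference in the gland of the adult offspring.

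Totals lay between 28318383 and 85977002 counts per library, and the median total of the nicotine group was 1.70 times that of the control group. The count of sequenced reads that the study lists for each library code runs the other way, with more reads for each control library than for the nicotine library of the same number. In relative size the listed numbers match the files with both groups exchanged. Directions below follow the GEO labels, every one of them would turn if the groups were exchanged, and which source is right was not tested. The label text on extraction describes testis, an organ in which Inha and Inhbb are also transcribed. Among 7 germ cell markers the highest level in any library was 0.0921 CPM, for Odf1. CPM is the count of a gene scaled to a common library size, with TMM factors for tested genes and without them for genes too low to be tested. Among 8 Sertoli and Leydig cell markers it was 0.739 CPM, for Sox8. The growth hormone gene Gh1 was at 52429 to 115788 CPM. Nicotine replicate 2 stood furthest from the other libraries over all genes.

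No difference in the 9 genes passed the test. A gene was called when its fold change exceeded 1.5 and its adjusted p was below 0.1, and edgeR's quasi-likelihood test called 0 of the 9, as it called 0% of all tested genes. At an unadjusted p under 0.05 it also found 0 of the 9, while 5.85% of all tested genes passed. DESeq2 called 0 of the 9, against 0.339% of the genes to which it gave an adjusted p, and it found 0 of the 9 at an unadjusted p under 0.05, against 4.7% of the genes it tested. The 3 nicotine libraries overlapped the 3 control libraries for each of the 9 genes, and 11.3% of all tested genes showed no overlap. The log2 fold change was above 0 for 7 of the 9 genes and for 51.2% of all tested genes, with medians of 0.21 and 0.0079. With 3 rats against 3 an exact two-sided permutation test cannot give a p under 0.1, and for the 9 genes it gave 0.2 to 0.8.

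**Figure D1:**
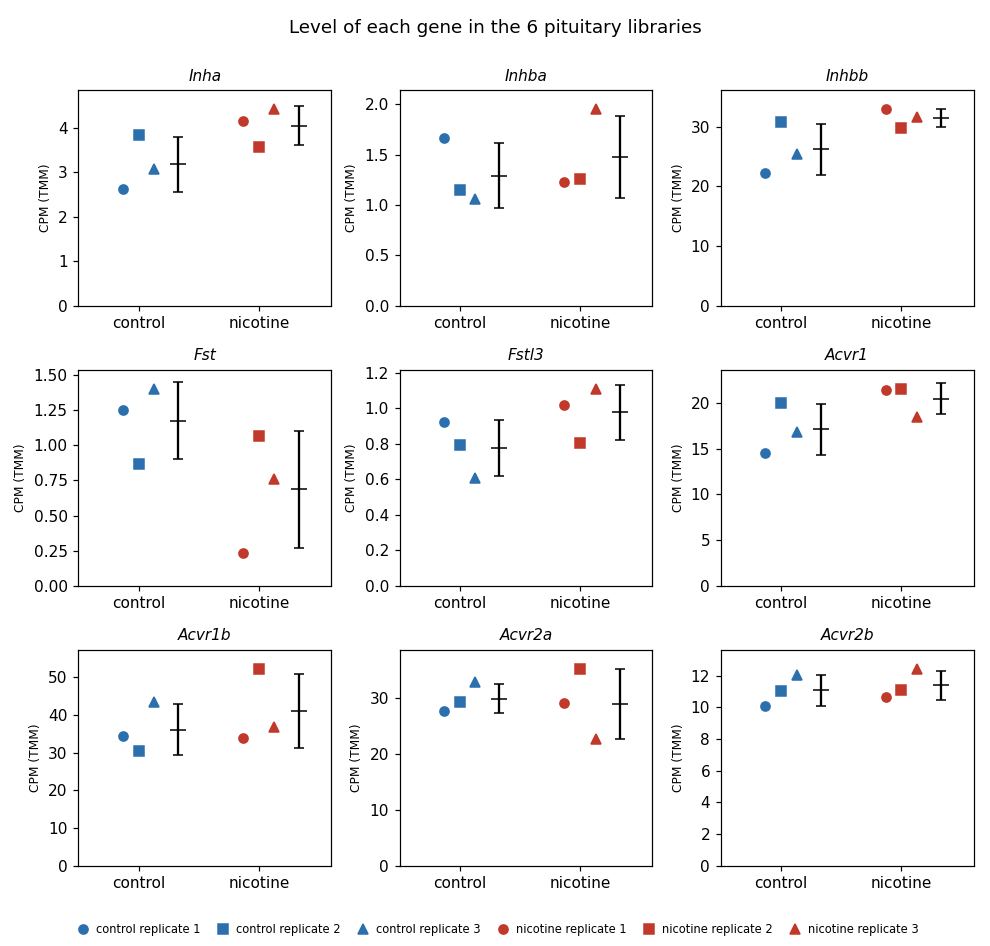
Level of each gene in CPM (y axis, from 0) in each of the 6 pituitary libraries by group (x axis). Points are single libraries and black bars are the mean ± SD of 3 libraries. The groups overlap in all 9 panels, and Fst in nicotine replicate 1, at 0.233 CPM, lies well below the other 5 libraries.

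Inhbb, which encodes the subunit of activin B and inhibin B, was at 32.9, 29.9 and 31.6 CPM in nicotine replicates 1, 2 and 3. In control replicates 1, 2 and 3 it was at 22.3, 30.8 and 25.5 CPM. The nicotine libraries lay close together, and only control replicate 2 reached into their range. The nicotine mean was 31.5 ± 1.53 CPM (SD, n = 3), and the control mean was 26.2 ± 4.33 CPM (SD, n = 3). The fold change was 1.20, with a 95% interval from 0.929 to 1.55 (adjusted p = 0.852 from edgeR).

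Inha, the gene of the subunit found in inhibins alone, followed the same order of libraries almost throughout. Its levels were 4.16, 3.57 and 4.41 CPM after nicotine and 2.62, 3.84 and 3.06 CPM in controls. Control replicate 2 again lay above the lowest nicotine library. The fold change was 1.27, with a 95% interval from 0.865 to 1.86 (adjusted p = 0.853 from edgeR). Control replicate 1, the library with the fewest counts, was lowest for Inha, Inhbb, Acvr1 and Acvr2b, and without it the log2 fold change of Inha went from 0.34 to 0.23 and that of Inhbb from 0.26 to 0.16. Without control replicate 2, the highest control for both genes, they were 0.51 and 0.40 (unadjusted p = 0.125 and 0.0665, adjusted p = 0.958 for each from edgeR). In bulk tissue fewer cells of a type and less RNA per cell cannot be told apart for these or the other genes.

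Inhba, the beta subunit gene of activin A, was counted far less often, with 40 to 118 counts per library. It was at 1.23, 1.26 and 1.95 CPM after nicotine and at 1.66, 1.15 and 1.06 CPM in controls. The highest library of each group stood apart from the other 2 of that group, which were nearly equal between groups. The fold change of 1.15 had a 95% interval from 0.677 to 1.97 (adjusted p = 0.926 from edgeR). The log2 fold change was 0.21 with all libraries, -0.04 without nicotine replicate 3 and 0.42 without control replicate 1.

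Within each library the 2 subunit genes Inha and Inhbb kept a nearly fixed proportion. Per count of Inhbb there were 0.126, 0.120 and 0.139 counts of Inha after nicotine and 0.118, 0.125 and 0.120 in controls. The mean log2 ratio was -2.96 ± 0.11 (SD, n = 3) after nicotine and -3.05 ± 0.04 (SD, n = 3) in controls (exact two-sided permutation test, p = 0.3). Such a ratio does not depend on normalization, but counting error still enters it. The difference in mean log2 ratio was 0.09, and 0.01 with all libraries thinned to the smallest total. A ratio of counts is not a ratio of molecules, since transcript lengths were not used here. For the same reason levels are not compared between genes. The proportion of Inhba to Inhbb ranged from 0.0374 to 0.0746 and overlapped between groups (exact two-sided permutation test, p = 0.8). Inhba had 40 to 118 counts per library, so counting error weighs more on this ratio. Ratios were computed for 6 pairs only, and other pairs may be as close. Pearson's r of log2 CPM over the 6 libraries was 0.97 for Inha and Inhbb and 0.91 for Inhbb and Acvr1.

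The sequences before the start of Inha and Inhbb are shown because their counts kept the closest proportion of the 6 ratios computed. Both are the 250 bases upstream of the RefSeq gene start in the rat assembly GRCr8, a later build than the rn7 of the counts. That of Inha lies at chr9:84442859-84443108 on the plus strand and that of Inhbb at chr13:33089374-33089623 on the minus strand. Capitals mark GGGCGG, the core of the GC box bound by SP1, and AGATAA, a form of the site bound by GATA factors, on either strand. Other forms of these sites are not marked.
Inha: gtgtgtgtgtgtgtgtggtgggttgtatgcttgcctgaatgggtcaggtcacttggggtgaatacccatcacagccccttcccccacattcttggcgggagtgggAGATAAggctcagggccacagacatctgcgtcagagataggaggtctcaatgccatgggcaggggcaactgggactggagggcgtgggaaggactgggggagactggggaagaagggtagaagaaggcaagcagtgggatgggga
Inhbb: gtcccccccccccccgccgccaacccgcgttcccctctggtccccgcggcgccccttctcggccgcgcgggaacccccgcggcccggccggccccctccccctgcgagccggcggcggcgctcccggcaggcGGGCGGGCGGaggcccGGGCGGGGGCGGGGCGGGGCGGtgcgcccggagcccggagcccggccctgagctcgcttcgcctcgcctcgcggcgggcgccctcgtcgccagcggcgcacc

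The pair of sequences differed in G and C content and in the marked letters, and the sequences were not aligned. The Inhbb stretch was 86.8% G and C and held GGGCGG 6 times, with neighbouring matches that overlap, while the Inha stretch was 58.4% G and C and held none. AGATAA occurred 1 time before Inha and was absent before Inhbb. Of 33469 rat promoter windows of this length, 30.5% held GGGCGG and 10.3% held AGATAA. The letters TGACGTCA of the cyclic AMP response element and AAGGTCA, bound by NR5A1, were searched in both directions as well, were in neither window, and were in 1.59% and 3.99% of all windows. Such matches describe the letters and are not evidence of binding. Only these exact letters were searched, so other forms of a site would be missed. A missing match therefore does not show that a window lacks such a site. Of the 9 genes, 7 had an entry in the promoter table, and GGGCGG also occurred 4 times before Fstl3, 3 times before Acvr1b and 2 times before Acvr2b.

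Fst, the follistatin gene, had the widest spread of the 9 genes. It was at 0.233, 1.06 and 0.760 CPM after nicotine and at 1.26, 0.870 and 1.40 CPM in controls. Nicotine replicate 1 was far below every other library and rested on 11 counts, for which counting error alone is 30.2%. The other nicotine libraries were within or just below the control range. The nicotine mean was 0.686 ± 0.420 CPM (SD, n = 3), and the control mean was 1.18 ± 0.274 CPM (SD, n = 3). Together they gave a fold change of 0.598 with a 95% interval from 0.277 to 1.29 (adjusted p = 0.852 from edgeR). The estimate depended on single libraries. Without nicotine replicate 1 the log2 fold change was -0.35 (adjusted p = 0.802 from edgeR), and without nicotine replicate 2 it was -1.22 (adjusted p = 0.776, unadjusted p = 0.0440 from edgeR).

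Fstl3 encodes a secreted relative of follistatin that also binds activins. Its levels were 1.02, 0.803 and 1.11 CPM after nicotine and 0.923, 0.794 and 0.608 CPM in controls, from 23 to 74 counts per library. The groups overlapped, with a fold change of 1.26 and a 95% interval from 0.720 to 2.21 (adjusted p = 0.880 from edgeR). The log2 fold change was 0.33 with all libraries, 0.19 without control replicate 3 and 0.22 with all libraries thinned to the smallest.

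The binding protein genes were also set against each other. Per count of Fst there were 4.36, 0.755 and 1.46 counts of Fstl3 after nicotine and 0.735, 0.913 and 0.434 in controls. The log2 ratio differed by 1.35 with overlapping groups (exact two-sided permutation test, p = 0.2), and by 0.66 without nicotine replicate 1. The count of Fst per count of Inhbb was 0.00709, 0.0356 and 0.0240 after nicotine and 0.0564, 0.0282 and 0.0549 in controls. This log2 ratio differed by -1.28 (exact two-sided permutation test, p = 0.2), and by -0.60 without nicotine replicate 1. In both ratios the single library with the most extreme value was nicotine replicate 1.

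**Figure D2:**
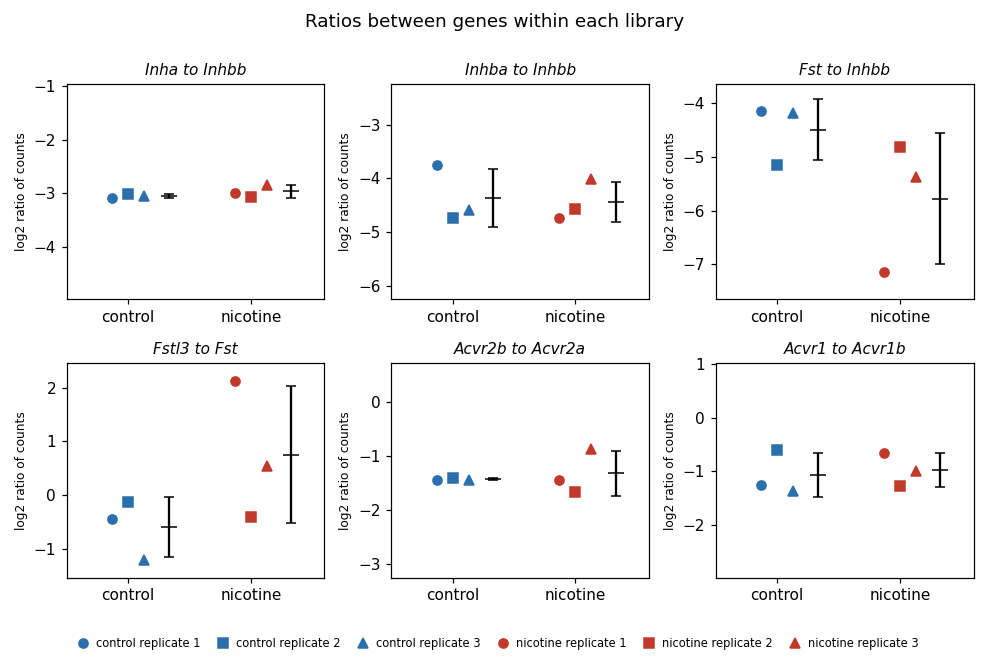
Log2 ratio of counts of 1 gene to another (y axis, each panel spanning 4 log2 units) in the 6 libraries by group (x axis), with the mean ± SD of 3 libraries in black. Inha to Inhbb is the narrowest of the 6 panels over all libraries, from 0.118 to 0.139 as a plain ratio, and the ratios that hold Fst are the widest.

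Of the type II receptor genes, which encode the receptors that bind the ligand first, Acvr2b varied least of all 9 genes. It was at 10.7, 11.1 and 12.4 CPM after nicotine and at 10.1, 11.1 and 12.0 CPM in controls. The highest library was 1.23 times the lowest, and the fold change between groups was 1.03 with a 95% interval from 0.789 to 1.34 (adjusted p = 0.973 from edgeR). Acvr2a was at 29.0, 35.1 and 22.7 CPM after nicotine and at 27.5, 29.3 and 32.7 CPM in controls. Both the highest and the lowest library belonged to the nicotine group. Its fold change was 0.969 with a 95% interval from 0.728 to 1.29 (adjusted p = 0.972 from edgeR), so that for both type II receptor genes the interval leaves out a change of 1.5 times in either direction.

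The proportion of these receptor genes was almost the same in the 3 control rats and differed among the nicotine rats. Per count of Acvr2a there were 0.367, 0.378 and 0.368 counts of Acvr2b in controls and 0.368, 0.316 and 0.549 after nicotine. The SD of the log2 ratio was 0.02 (n = 3) in controls and 0.41 (n = 3) after nicotine. The means did not separate (difference 0.11, exact two-sided permutation test, p = 0.8), and the difference in spread was not tested.

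The type I receptor genes encode the kinases that pass the signal on to Smad proteins. Acvr1b, the gene of the main activin type I receptor ALK4, was at 33.8, 52.1 and 36.7 CPM after nicotine and at 34.5, 30.3 and 43.4 CPM in controls. Nicotine replicate 2 held the highest level, and the other 5 libraries were mixed in order. The fold change was 1.13 with a 95% interval from 0.826 to 1.56 (adjusted p = 0.888 from edgeR), and the log2 fold change of 0.18 became -0.04 without nicotine replicate 2 and 0.34 without control replicate 3.

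Acvr1, the gene of ALK2, a type I receptor used by bone morphogenetic proteins and able to bind activins, was at 21.5, 21.5 and 18.5 CPM after nicotine. In controls it was at 14.5, 20.1 and 16.9 CPM. As with Inha and Inhbb, control replicate 1 was lowest and control replicate 2 alone reached the nicotine range. The fold change was 1.19 with a 95% interval from 0.914 to 1.56 (adjusted p = 0.852 from edgeR). On the log2 scale it was 0.26 with all libraries, 0.15 without control replicate 1 and 0.39 without control replicate 2. The ratio of Acvr1 to Acvr1b ran from 0.388 to 0.663 and did not separate the groups (exact two-sided permutation test, p = 0.8).

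**Figure D3:**
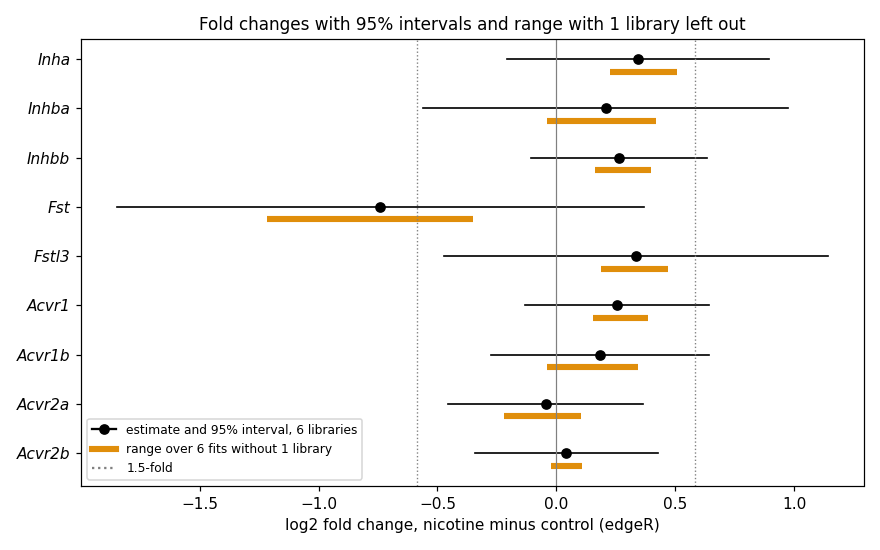
Log2 fold change of each gene (x axis, nicotine minus control, edgeR) with its 95% interval in black and the range over 6 fits, with a different library removed in each, in orange. Dotted lines mark a change of 1.5 times. All intervals hold 0, and the orange range crosses 0 for Inhba, Acvr1b, Acvr2a and Acvr2b.

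The other genes of the pathway were taken from a list of 38 in 4 groups, of which 31 were tested. None was called by edgeR (0% of all tested genes were) or by DESeq2. The log2 fold change was above 0 for 23 and below 0 for 8, with a median of 0.21. At an unadjusted p under 0.05 there were 2 genes with higher levels and 0 with lower, against 3.12% and 2.73% of all tested genes. The nicotine libraries lay above the control libraries without overlap for 6 of the 31 and below for 1, where 6.12% and 5.14% of all tested genes did so.

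Of 10 genes for other ligands that use these receptors, 5 were tested, with 2 log2 fold changes above 0 and 3 below. Bmp6, a bone morphogenetic protein gene, was at 32.3 to 43.6 CPM after nicotine and at 31.9 to 49.3 CPM in controls. Gdf11 was at 16.3 to 32.3 CPM and 16.4 to 22.0 CPM. Inhbc and Inhbe, the remaining beta subunit genes and mainly known from liver, had 0 counts in every library, which allows up to 0.0349 to 0.106 CPM at the depth of these libraries. Mstn, Nodal and Gdf3 were too low to be tested.

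Among 11 tested genes for coreceptors, other receptors and inhibitors, 9 log2 fold changes were above 0. Tgfbr3 encodes betaglycan, a coreceptor through which inhibin competes with activin for type II receptors. It was at 47.4, 71.2 and 44.6 CPM after nicotine and at 42.8, 51.8 and 47.0 CPM in controls, with overlapping groups (log2 fold change 0.21, adjusted p = 0.861 from edgeR). Wfikkn2, whose product binds growth and differentiation factors, was at 1.87, 2.83 and 2.18 CPM against 1.70, 1.48 and 1.35 CPM. Fstl1, a distant relative of follistatin, was at 47.6, 51.9 and 63.7 CPM against 45.8, 47.0 and 34.8 CPM. The groups did not overlap for either gene, with nicotine on top, yet neither passed (log2 fold change 0.61 for Wfikkn2 and 0.36 for Fstl1, adjusted p = 0.839 for each from edgeR). Without nicotine replicate 3 the log2 fold change of Fstl1 was 0.23, and without nicotine replicate 2 that of Wfikkn2 was 0.42. Tgfbr3l, also on the list, was not among the gene symbols counted, so its level is not known here.

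The Smad group had 11 tested genes, 8 of them with a log2 fold change above 0. Smad2 and Smad3, which carry the activin signal, had log2 fold changes of -0.11 and 0.11, and Smad4, their common partner, had -0.07. Smurf1, a ubiquitin ligase gene, was at 15.5, 18.0 and 13.7 CPM after nicotine and at 10.9, 13.4 and 12.3 CPM in controls. Skil, which encodes a repressor of Smad activity, was at 62.5, 58.7 and 42.4 CPM after nicotine and at 70.0, 76.4 and 63.2 CPM in controls. Tgif1, another repressor gene, was at 3.95, 5.37 and 4.44 CPM against 3.29, 3.80 and 3.14 CPM. The groups did not overlap for these 3 genes, with adjusted p of 0.839, 0.839 and 0.846 from edgeR. The log2 fold change of Skil went from -0.36 to -0.20 without nicotine replicate 3. Without nicotine replicate 2 that of Smurf1 went from 0.37 to 0.25 and that of Tgif1 from 0.43 to 0.29.

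**Figure D4:**
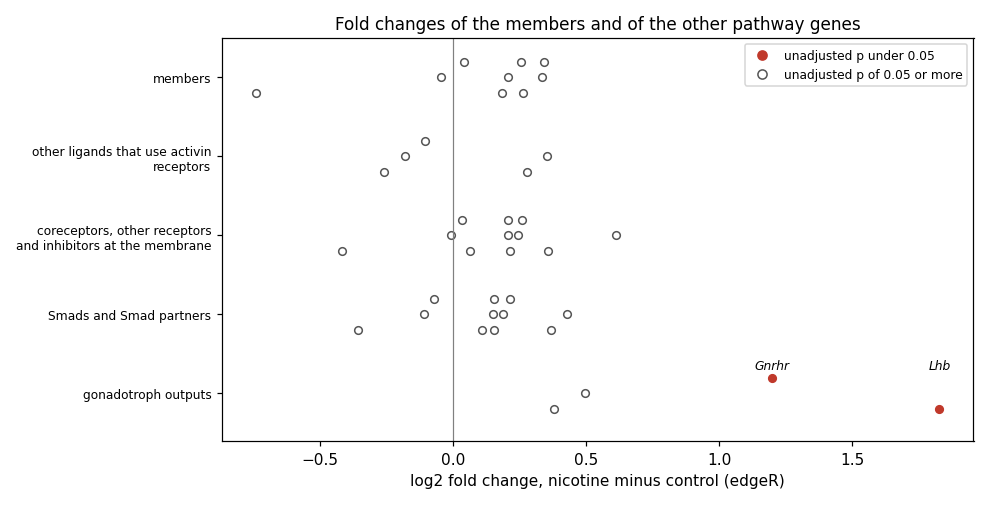
Log2 fold changes (x axis, nicotine minus control, edgeR) of the 9 genes and of the 31 other pathway genes tested, 1 point per gene, by group (rows). Filled red points have an unadjusted p under 0.05 and are Gnrhr and Lhb, while the 9 genes of the system lie between -0.74 and 0.34.

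Gonadotrophs are the cells in which activin action on the pituitary is best known, and their products were set beside the subunit genes. Fshb, the subunit gene through which activins act on follicle-stimulating hormone, was at 522, 890 and 437 CPM after nicotine and at 630, 410 and 384 CPM in controls. The groups overlapped (log2 fold change 0.38, adjusted p = 0.854 from edgeR), and the log2 fold change was 0.0089 without nicotine replicate 2 and 0.64 without control replicate 1. Cga, which encodes the common alpha subunit of the glycoprotein hormones, likewise overlapped, at 1651 to 2970 CPM and 1519 to 2127 CPM, with a log2 fold change of 0.49 that was 0.33 without nicotine replicate 2.

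Lhb, the beta subunit gene of luteinizing hormone, was at 216, 820 and 223 CPM after nicotine and at 154, 75.6 and 125 CPM in controls. Gnrhr, the gene of the receptor for gonadotropin-releasing hormone, was at 34.2, 106 and 34.6 CPM against 30.1, 25.3 and 21.0 CPM. For both genes the nicotine libraries were all above the controls, and nicotine replicate 2 stood far above the rest. The log2 fold changes of 1.83 and 1.20 had an adjusted p of 0.807 each from edgeR and were 0.89 and 0.43 without nicotine replicate 2. In DESeq2 the adjusted p was 0.560 for Lhb and 0.148 for Gnrhr, both above the threshold of 0.1.

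The subunit genes did not share this peak. In nicotine replicate 2, where Fshb, Lhb, Cga and Gnrhr were each at their highest, Inha and Inhbb were at their lowest of the 3 nicotine libraries. In control replicate 1, where Inha and Inhbb were at their lowest of all, Fshb, Lhb, Cga and Gnrhr were each the highest of the 3 control libraries. Among controls, the gonadotroph markers Nr5a1 and Foxl2 were instead highest in replicate 3, at 12.6 CPM, and in replicate 2, at 3.50 CPM. Nor was the pattern limited to gonadotroph genes. Gh1, Avp and Oxt also peaked in nicotine replicate 2 and, among controls, in replicate 1. Prl, Pomc and Tshb were at their lowest of all in nicotine replicate 2.

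**Figure D5:**
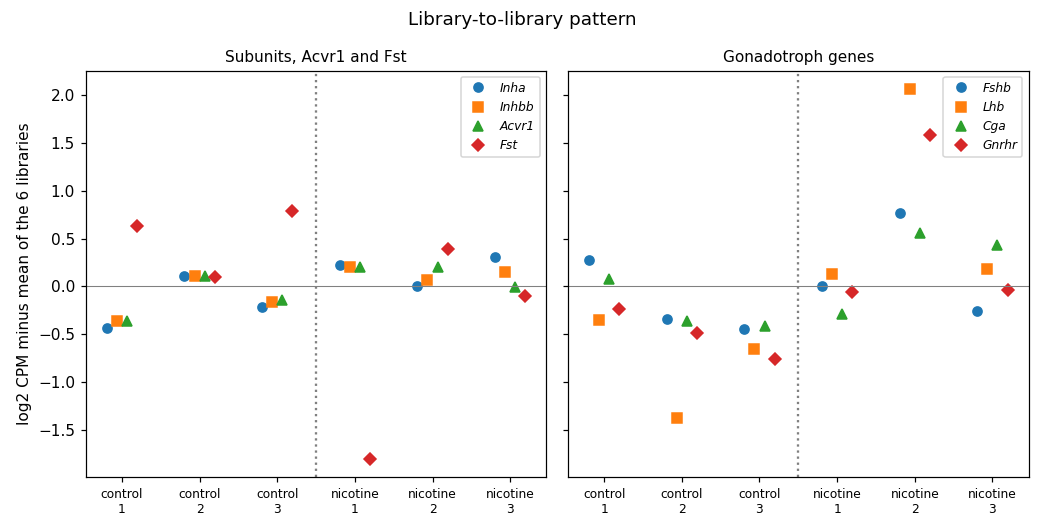
Log2 CPM of each gene minus its mean over the 6 libraries (y axis), by library (x axis), for Inha, Inhbb, Acvr1 and Fst on the left and for 4 gonadotroph genes on the right. Lhb and Gnrhr peak in nicotine replicate 2, at 820 and 106 CPM, while Inha and Inhbb stay near their mean there, at 3.57 and 29.9 CPM.

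The summed levels of cell type markers are given beside these values, and their part in them was not tested. All 6 gonadotroph markers had a log2 fold change above 0, with summed levels of 2439 to 4824 CPM after nicotine and 2065 to 2956 CPM in controls. The 5 posterior lobe markers summed to 82.3 to 233 CPM after nicotine and to 6.79 to 76.5 CPM in controls. The 6 fibroblast and meningeal markers, all with a log2 fold change below 0, summed to 299 to 737 CPM after nicotine and to 828 to 953 CPM in controls. The 5 endothelial markers summed to 153 to 244 CPM and 121 to 157 CPM, and the 5 blood markers to 1507 to 4706 CPM and 3995 to 7287 CPM. The 6 folliculostellate and stem-like markers summed to 283 to 406 CPM after nicotine and to 268 to 348 CPM in controls. The largest parts of this sum were Aldh1a1, at 124 to 182 CPM, and S100b, at 72.3 to 136 CPM. Folliculostellate cells are known to make follistatin, and their part in the level of Fst was not tested. The 5 smooth muscle and pericyte markers summed to 37.4 to 200.2 CPM after nicotine and to 40.7 to 53.8 CPM in controls. Most of the highest sum was Tagln, at 138 CPM in nicotine replicate 3 and at 10.6 to 32.4 CPM in the other libraries. The 7 markers of other hormone cells summed to 111618 to 173250 CPM after nicotine and to 144227 to 156984 CPM in controls. The smallest adjusted p of a marker was 0.597 in edgeR, for Acta2, which DESeq2 called.

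The genes whose pattern over the 6 libraries was most like that of Inha were Atf7, Egfr and Pald1, with Pearson's r of log2 CPM of 0.99 each. For Inhbb they were Sin3a, Zmiz2 and Kank1, also at 0.99, and for Fst they were Gpsm2, Myzap and Ctsc, at 0.98, 0.97 and 0.96. By rank the 3 genes like Fst were less close, with Spearman's rho of 0.94, 0.89 and 0.83. Fst had 11 counts in nicotine replicate 1, its lowest library, and Inha and Fst were themselves below 5 CPM throughout. These values are a description over 6 libraries that share their scaling, from the highest of 11505 genes at 5 CPM or more for Inha and Fst and 11504 for Inhbb. At r above 0.9 there were 203 genes for Inha, 132 for Inhbb and 45 for Fst.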

How the data were processed

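Per the labels and the paper's methods, the authors sequenced paired-end stranded libraries, mapped reads to rn7 with HISAT2 2.1.0 and used featureCounts with the ncbiRefSeq gene models of UCSC. The deposited values are whole-number counts per gene symbol, without normalization. Whether reads or pairs were counted, the strand setting and the handling of multi-mapping reads are not given in the sources used here.

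Counts were analysed in R 4.3.3 with edgeR 4.0.16 (filterByExpr, TMM, quasi-likelihood test, no covariate) and Benjamini-Hochberg adjustment over all 17292 genes tested. The call thresholds (fold change above 1.5, adjusted p below 0.1) are those of the study. Intervals are 95% intervals of the edgeR log2 fold change. Patterns over libraries used log2 CPM with a prior count of 2. DESeq2 1.42.0 and limma 3.58.1 served as alternatives, beside other scalings, filters, thinning, a replicate block and leaving out each library. Log2 ratios of counts were compared by exact permutation tests, 6 ratios in all.

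The members and lists were chosen with earlier results of these data known. Named were the 9 genes, Fshb, Lhb, Cga, Gnrhr, the 5 other pathway genes with the smallest p, and for 3 genes the 3 most alike in pattern; Bmp6, Gdf11, the untested ligand genes, Tgfbr3 and 3 Smad genes were added after their values were seen. The edgeR procedure was tested on simulated counts. Transcript lengths were not used here. Promoter sequences are from RefSeq (GRCr8).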

Additional observations from a re-analysis of the deposited data

How the results depend on the processing

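No alternative called any of the 9 genes or, where run, any of the other pathway genes. Over the 14 alternatives per gene the adjusted p of a member lay between 0.681 and 0.999. Of 126 comparisons of a member with its value above, 119 kept the direction and 7 reversed it. Those 7 were Acvr2a with library sizes alone (0.012), without nicotine replicate 3 (0.10) and without control replicate 3 (0.03), Acvr2b without nicotine replicate 3 (-0.023) or control replicate 1 (-0.017), Inhba without nicotine replicate 3 (-0.041) and Acvr1b without nicotine replicate 2 (-0.040). With 1 library left out, log2 fold changes ran from -0.22 to 0.10 for Acvr2a, -0.02 to 0.11 for Acvr2b, -0.04 to 0.42 for Inhba and -0.04 to 0.34 for Acvr1b. They ran from 0.23 to 0.51 for Inha, 0.16 to 0.40 for Inhbb, -1.22 to -0.35 for Fst, 0.19 to 0.47 for Fstl3 and 0.15 to 0.39 for Acvr1. The difference in log2 ratio ran from -0.30 to 0.22 for Inhba to Inhbb, -0.12 to 0.28 for Acvr2b to Acvr2a and -0.063 to 0.33 for Acvr1 to Acvr1b, and kept its direction for the other 3 ratios. The cause was not tested. Levels per transcript length were not run.

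Over all genes, DESeq2 called 61 genes, no filter 30, the replicate block 2, and library sizes alone, at least 10 counts in every library, voom with quality weights and thinning 1 each, against 0. Leaving out 1 library gave 0 to 4. At an unadjusted p under 0.05 edgeR found 1011 genes. Same-numbered libraries deviated together with correlations of 0.03, -0.20 and -0.08, and libraries with different numbers with -0.16 to 0.20. These similar values cannot show whether the replicate numbers pair the animals. The replicate block moved no member past the threshold. Counts of 11 to 118 per library limit what can be seen for Fst, Inhba and Fstl3.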
